A study of Homo sapiens with 24 samples.

Results

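The genes described here build, modify and bind the extracellular matrix. They are collagens, laminins, matrix glycoproteins, matrix-modifying enzymes, proteases, protease inhibitors and integrins. Members were the catalog probes of the array whose gene name begins with one of a set of matrix and integrin prefixes, such as COL, LAMA, MMP, TIMP, ITGA, ITGB or THBS. This gave 115 probes for 96 gene names, of 17535 catalog probes for 15102 names. Of the 96 names, 11 matched the prefixes without belonging to these families, such as COL4A3BP, a ceramide transfer protein now named CERT1, and the pseudogene LAMB2P1. Of 35 matrix genes listed for their role, 16 had a member probe, and FN1, COL1A2, SPARC and ITGB1 were among those not analysed here.

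The RNA came from MRC5 cells, an established line of human lung fibroblasts, left untreated (control) or exposed to oxidative stress (OS) with 0.2 mM H2O2 for 2 h. Cycloheximide (150 µg/ml, 15 min) held ribosomes on the mRNA, and cell extracts were separated on sucrose gradients. Fractions 1 to 9 were pooled as untranslated RNA (free particles and single ribosomes), fractions 10 to 14 as the low pool (few ribosomes per mRNA) and fractions 15 to 23 as the high pool (many ribosomes), beside whole-cell (total) RNA. Each of the 8 groups, control and OS for each of the 4 kinds of RNA, had 3 single-colour arrays, on 3 slides, with every group once on each slide. The number of arrays limits the precision. On OS low replicate 3, 95.4% of the catalog probes were well above background, against 43.6% to 67.8% on the other arrays. This array was left out, so the low pool upon OS had 2 arrays. For each array 100 ng of RNA was labelled, whatever amount the pool held. All values are log2 intensities after quantile normalization, which makes each of them relative to the other catalog probes on the array. Probes of different genes are therefore not set against each other. In RNA from a whole culture, fewer cells with a transcript and less of it per cell cannot be told apart.

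Fibroblasts secrete the matrix that holds connective tissue together. Collagen chains, laminins and matrix glycoproteins are made on ribosomes bound to the endoplasmic reticulum, where prolyl hydroxylases and other enzymes modify the chains before secretion, and outside the cell matrix metalloproteinases (MMPs) and ADAMTS proteases cut them while TIMPs inhibit the MMPs. Integrins are the membrane receptors that attach cells to this matrix. An mRNA that carries many ribosomes travels to the bottom of a sucrose gradient, so its place in the gradient tells how many ribosomes it carries but not whether these are moving.

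Of 7 fibroblast markers, THY1 and DDR2 had a catalog probe, and both were well above background on all 3 control arrays of total RNA, with mean log2 intensities of 15.81 and 10.13. KRT5, VWF and KDR, markers of epithelial and endothelial cells, were well above background on 0 of 3 of these arrays. EPCAM and MYH11 were above it on 0 of 3 control arrays and 2 of 3 OS arrays. The smooth muscle markers CNN1 and DES, the epithelial marker SFTPC, the endothelial marker CDH5 and 1 of 3 probes of the blood marker PTPRC were above it on 3 of 3 control arrays. SFTPC rose in total RNA upon OS, from a mean of 6.09 to 7.11. The part of other cell types in the values below was not tested.

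Each array probe reads a short stretch of a transcript. Some members are shown by 30 bases of this stretch because probes of the same gene differed in the gradient or because the results turn on them. Capitals mark AATAAA, the usual signal for adding a poly(A) tail, found on the transcript strand, or GG at every ninth base, the pattern that glycine codons leave in a collagen triple helix. In 1 stretch of LAMA4, 1 of COL6A3 and that of TNC no letter is marked. Positions are in GRCh37, the build of the array design, and the sources used here do not say for that build whether a site is coding or in a UTR.
TNC, chr9:117783340-117783369, minus strand: caatacaaccagcccaaccatcggtccaca
COL5A1, probe A_33_P3629678, chr9:137736354-137736383, plus strand: acagtatattgcAATAAAattacttcttat
MMP2, chr16:55540548-55540577, plus strand: ttccaaccacataAATAAAaaaggccatta
COL6A3, probe A_33_P3210488, chr2:238234234-238234263, minus strand: tgtggtggaaacgaaaacaaatttggatca
COL6A3, probe A_33_P3280385, chr2:238280289-238280318, minus strand: ggctcaaaggccatggtactcatAATAAAt
COL16A1, probe A_23_P160318, chr1:32118196-32118225, minus strand: gactccgttgggAATAAAtggccaaagctt
COL16A1, probe A_33_P3210647, chr1:32148565-32148594, minus strand: GGggtgaaaGGagccaccGGacctgtgGGa
LAMA4, probe A_33_P3391603, chr6:112574994-112575023, minus strand: tcggaaacttgaAATAAAgagttttccttt
LAMA4, probe A_33_P3391596, chr6:112429171-112429200, minus strand: ctgttcatagaggacttactaagtgccagc

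AATAAA was in 11 of 115 member probes (9.57%) and in 7.9% of all catalog probes. GG at every ninth base, 4 times, was in 3 member probes (2.61%) and in 0.131% of the catalog probes. The COL16A1 probes lie 30301 bases apart, those of COL6A3 46025 and those of LAMA4 145786. A motif in a probe is a description of its site and says nothing of how the transcript is processed.

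Of the 115 member probes, 41 were well above background on every array kept, 49 on some of them and 24 on none. The remaining probe, 1 of the LAMB2 pair, was marked as an outlier on an array and left out. A probe entered a comparison if all arrays of 1 or more of its groups read it well above background, which held for 76 probes of 66 genes in at least 1 comparison. Differences were tested with limma over all catalog and lncRNA probes, and a difference was called at a Benjamini-Hochberg adjusted p under 0.05.

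In untreated cells most matrix mRNAs were higher in the high pool than in the untranslated pool. Of 66 member probes tested, 41 were higher (62.1%) and 14 lower (21.2%), while 47.2% of all catalog probes tested were higher and 34.5% lower. The median difference was 0.87 for the members and 0.35 for all catalog probes. A probe measured in only 1 of the pools was favoured to differ by the filter. Among the 42 members well above background in both pools, 26 were higher and 12 lower, beside 42.2% and 42.6% of the catalog probes. Within the slides the members' median was 1.07, 1.25 and 0.42, and with the slide as a block the count of called members was 55, as without it. The 2 pools are normalized to each other as whole arrays, and with scaling of each array to its 75th percentile the split was 53 higher and 6 lower, beside 67.9% and 14.7% of the catalog probes.

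The fibrillar collagen COL1A1, which forms the main fibres of connective tissue, had log2 intensities of 15.16, 15.02 and 15.04 in the control untranslated pool and 17.30, 17.19 and 16.88 in the control high pool. All 3 high-pool arrays lay above all 3 untranslated ones, with a difference of 2.05 ± 0.14 (SE, limma adjusted p = 2.93e-10). The proteoglycan LUM, which spaces collagen fibrils, was at 8.86, 8.31 and 8.27 against 11.29, 11.35 and 10.95, a difference of 2.71 ± 0.21 (adjusted p = 1.75e-09). COL8A1, a short-chain collagen, was higher by 2.65, P4HA2, a prolyl hydroxylase subunit, by 2.19, SERPINF1, a secreted serpin, by 2.12 and a probe of the elastic fibre glycoprotein FBLN1 by 2.06, each with groups that did not overlap. Over the alternatives run the differences ranged from 2.62 to 4.39 for LUM, 2.54 to 4.34 for COL8A1 and 2.08 to 3.90 for P4HA2. They ranged from 1.99 to 3.85 for SERPINF1 and from 1.87 to 3.65 for this FBLN1 probe. All 3 probes tested of the TIMP and serpin families were measured in both pools and higher in the high pool, among them TIMP1 by 1.56 and TIMP3 by 1.91. Of the 6 modifying enzymes tested only P4HA1 and P4HA2 were measured in both pools, and both were higher in the high pool. The other 4 passed through the high pool alone, which favours a difference. Among them LOXL3 and PLOD1 were not well above background on any control untranslated array and were at least 4.44-fold and at least 3.41-fold higher in the high pool.

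A smaller set lay on the other side of the gradient. ITGAE, an integrin subunit best known from lymphocytes, had 13.66, 13.44 and 13.55 in the untranslated pool and 9.09, 9.08 and 8.93 in the high pool, which is a difference of -4.52 ± 0.15 (adjusted p = 7.53e-14). Its low-pool values of 12.32, 11.95 and 12.44 fell between these, so that the 3 pools did not overlap. The LAMA4 probe with AATAAA had 11.19, 11.16 and 11.10 in the untranslated and 7.63, 7.90 and 7.85 in the high pool (difference -3.36 ± 0.13, adjusted p = 5.38e-13). ITGB1BP1, an adaptor that binds an integrin tail and not a matrix gene, differed by -2.75, COL23A1, a transmembrane collagen, by -1.92, and MMP17, a membrane-anchored protease, by -1.99. With scaling to the 75th percentile COL23A1 and MMP17 were no longer called (adjusted p = 0.0606 and 0.0958). Over the alternatives run the LAMA4 probe with AATAAA lay between -3.40 and -1.80 and ITGB1BP1 between -2.84 and -1.19.

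Probes of the same gene did not always share a place in the gradient. COL16A1 read at A_23_P160318 was higher in the high pool by 0.46 ± 0.16, with 11.45, 11.35 and 11.06 in the untranslated and 11.90, 11.90 and 11.43 in the high pool, groups that overlapped. Read at A_33_P3210647, inside the glycine repeat, it was at 9.60, 10.14 and 10.46 against 7.46, 7.09 and 7.00, without overlap (difference -2.88 ± 0.21, adjusted p = 8.08e-10). The difference at A_33_P3210647 lay between -3.12 and -1.47 over the alternatives run. The second LAMA4 probe, A_33_P3391596, was well above background on 3 of 3 control untranslated arrays and on no control high array, and was at least 9.26-fold higher in the untranslated pool. For FBLN1 both probes were higher in the high pool, by 2.06 and 1.29, and so were both COL6A3 probes. A_33_P3210488 was higher by 0.62 ± 0.19 and not called in a fit of the compared groups alone (adjusted p = 0.116) or without control untranslated replicate 3, and the size for A_33_P3280385 is open, with 1 of 3 untranslated arrays above background.

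**Figure D1:**
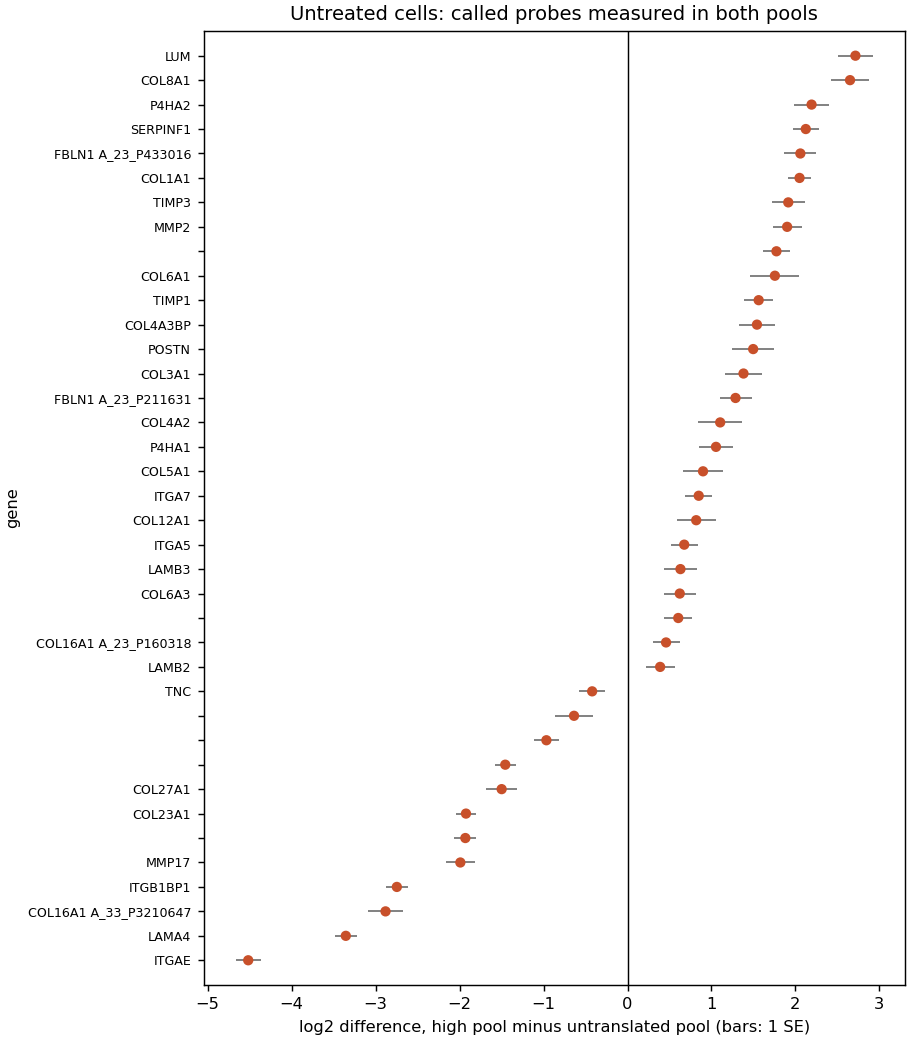
Difference in log2 intensity between the high and the untranslated pool in untreated cells (x axis) for the called matrix and integrin probes that were well above background on every array of both pools, sorted by size. Points are limma estimates from 3 arrays a group and bars are 1 SE. LUM (2.71) and COL8A1 (2.65) lie at the right end and ITGAE (-4.52) at the left end. TNC turns to the right with other scalings. Labels are given for genes named in the text.

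TNC, a large glycoprotein of remodelled tissue, was lower in the high pool with the normalization used throughout, with a difference of -0.42 (adjusted p = 0.0229). With normexp, with quantile normalization over all probes, with the deposited table and with scaling to the 75th percentile it turned to the high pool, so no place in the gradient is read for it.

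Few of these genes were called upon OS in total RNA. Of 74 member probes tested, 8 were higher (10.8%) and 3 lower (4.05%) upon OS, beside 5.49% and 7.56% of all catalog probes. The median difference was -0.06 for the members and -0.02 for the catalog probes. Within slides the members' median was -0.02, -0.05 and -0.03, and the slide block gave 12 calls in place of 11. Among the 65 members well above background in both groups, 5 were higher and 3 lower, beside 3.54% and 6.78% of the catalog probes. A fit of the total RNA arrays alone called 21, of which 8 were higher and 13 lower, beside 8.49% and 15.2% of the catalog probes, and with normexp 8 were higher and 8 lower, beside 5.48% and 11.2%.

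Those measured in both groups included a protease, integrin chains and a collagen. MMP25, a membrane-anchored MMP best known from neutrophils, rose from 5.73, 5.62 and 5.22 to 9.11, 9.28 and 8.52, a difference of 3.45 ± 0.32 (limma adjusted p = 5.78e-07) and the largest among the called members. Its second probe, 9872 bases away, was at 4.77, 5.24 and 4.91 in control and 5.48, 5.45 and 5.13 in OS and did not pass the test. ITGB4, the integrin chain of hemidesmosomes, rose from 6.01, 5.88 and 5.76 to 7.44, 7.46 and 7.17 (1.48 ± 0.15). COL23A1 rose by 0.73 ± 0.12 and was not called with scaling to the 75th percentile (adjusted p = 0.0777). This and the other COL23A1 values given here are from A_33_P3341722, which matched no RefSeq accession. The other COL23A1 probe, 324165 bases away, had means of 4.70 in control and 4.60 in OS. It was well above background on 0 of 3 control and 1 of 3 OS arrays of total RNA. ITGA7, a laminin-binding integrin chain, rose by 0.60 ± 0.16, from 12.11, 12.17 and 12.16 to 12.68, 12.99 and 12.58, and was called neither with that scaling (adjusted p = 0.277) nor without control total replicate 1 (0.0511) or OS total replicate 2 (0.0843). A further 3 higher probes, both of COL11A2 and that of LAMB2P1, were not above background on every control array.

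THBS1, a matricellular glycoprotein that binds collagen and activates TGF-beta, was among the 3 lower probes. Its control values of 15.16, 15.07 and 15.15 all lay above its OS values of 14.36, 14.63 and 14.53 (difference -0.62 ± 0.17, adjusted p = 0.0150), and the call was lost with scaling to the 75th percentile (adjusted p = 0.0914) and without OS total replicate 1 (0.0756). The protease ADAMTS12 differed by -0.66 and was called neither with all 24 arrays (adjusted p = 0.121) nor without control total replicate 1 (0.0532). COL4A3BP differed by -0.73, with 10.74, 10.67 and 10.64 in control and 9.18, 10.35 and 10.33 in OS, the lowest being OS replicate 1, and the call was lost without any 1 of the 3 control arrays or OS total replicate 1. COL1A1 had 17.78, 17.82 and 17.74 in control and 17.50, 17.46 and 17.41 in OS, a difference of -0.32 ± 0.14 that did not pass the test (adjusted p = 0.132). A single array can decide a value in this RNA, as for COL6A2, whose control replicate 1 was at 3.19 and the other two at 13.79 and 13.85. Its estimated difference of 3.40 ± 1.75 rests on that array.

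In the untranslated pool, matrix genes of every family were higher upon OS. Of 55 member probes tested, 40 were higher (72.7%) and 3 lower (5.45%), beside 21.3% and 24% of all catalog probes. The median difference was 0.94 for the members and -0.04 for all catalog probes. Of the 43 members well above background in both groups, 31 were higher and 3 lower, beside 19.6% and 24.7%, so the direction did not rest on probes that were dim in control. Within slides the members' median was 0.88, 1.01 and 0.95, and the slide block gave 44 calls in place of 43. Of the 2 fibroblast markers tested in this pool, DDR2 was higher, by 0.79 ± 0.15. THY1 went from a mean of 15.20 to 15.02 and was not called. Of the 2 smooth muscle markers tested, CNN1 was higher, by 0.43 ± 0.14. DES went from a mean of 10.83 to 10.97 and was not called. A fit of the untranslated arrays alone gave 32 calls, of which 31 were higher and 1 lower, beside 9.81% and 8.49% of the catalog probes. With all 24 arrays 33 were higher and 1 lower, beside 14.1% and 13.2%. With scaling to the 75th percentile 34 were higher and 0 lower, beside 13.8% and 8.52%.

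Counted over probes well above background in both groups, the higher ones were 4 of 5 probes of fibrillar collagens, 8 of 10 of other collagens, 3 of 5 of laminins, 6 of 7 of matrix glycoproteins, 2 of 2 of modifying enzymes, 2 of 3 of proteases, 2 of 3 of TIMPs and serpins and 2 of 3 of integrins. COL3A1, the fibrillar collagen of elastic tissues, rose from 8.45, 8.06 and 7.51 to 10.18, 10.54 and 10.07 (difference 2.25 ± 0.21, adjusted p = 6.14e-07). COL1A1 rose from 15.16, 15.02 and 15.04 to 16.43, 16.27 and 16.40 (1.30 ± 0.14). For both collagens all OS arrays lay above all control arrays. COL5A1, which sets the diameter of collagen fibrils, rose by 1.99 and 1.93 at its 2 probes.

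TNC rose most among the members measured in both groups, from 8.44, 8.41 and 8.05 to 10.93, 10.96 and 10.83 (2.61 ± 0.16, adjusted p = 4.67e-09). ITGA7 rose from 9.72, 9.49 and 9.31 to 12.11, 12.06 and 11.95 (2.54 ± 0.16, adjusted p = 8.69e-09). COL6A3, a chain of the beaded filaments around cells, rose by 2.32 at A_33_P3210488, and COL12A1, a collagen that sits on the surface of fibrils, by 2.17. None of these 4 had an OS array within the control range.

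Among enzymes that act on collagen, P4HA1 rose by 1.15 ± 0.20, MMP2, a gelatinase, by 1.41 ± 0.17, and P4HA2 by 0.57 ± 0.21, the last not called when any of several single arrays was left out. LOXL3, which cross-links collagen, was not well above background on any control array and was at least 1.44-fold higher. By the same bound MMP25 was at least 6.08-fold and ITGB4 at least 3.58-fold higher. The second MMP25 probe had means of 6.60 in control and 6.46 in OS. It was above background on 2 of 3 arrays of each group and so was not tested. ITGA5, the fibronectin receptor chain, rose by 1.03 ± 0.16, THBS1 by 0.85 ± 0.17 and SERPINF1 by 0.74 ± 0.16. TIMP3 at 0.72 ± 0.20, LUM at 0.72 ± 0.21 and POSTN at 0.94 ± 0.25 were called, but not in a fit of the untranslated arrays alone (adjusted p = 0.113, 0.129 and 0.0966), and LUM lost its call under 4 of 16 alternatives.

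The 3 lower probes were LAMA4 read at A_33_P3391603 (-0.49 ± 0.13), ITGB1BP1 (-0.38 ± 0.13) and COL4A3BP (-0.64 ± 0.21). With scaling to the 75th percentile none of the 3 was called, and over 16 alternatives ITGB1BP1 lost its call under 10 and COL4A3BP under 6. Probes that lay in the untranslated pool in untreated cells gave small differences here. ITGAE went from 13.66, 13.44 and 13.55 to 12.99, 13.39 and 13.13, COL16A1 at A_33_P3210647 had a difference of -0.17, MMP17 of 0.18 and COL27A1 of 0.05, and none of them passed the test. TIMP1, with 14.61, 14.78 and 14.21 in control and 14.66, 14.30 and 14.72 in OS, had a difference of 0.03 ± 0.17. The comparison of pools in untreated cells and this one share the control untranslated arrays.

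**Figure D2:**
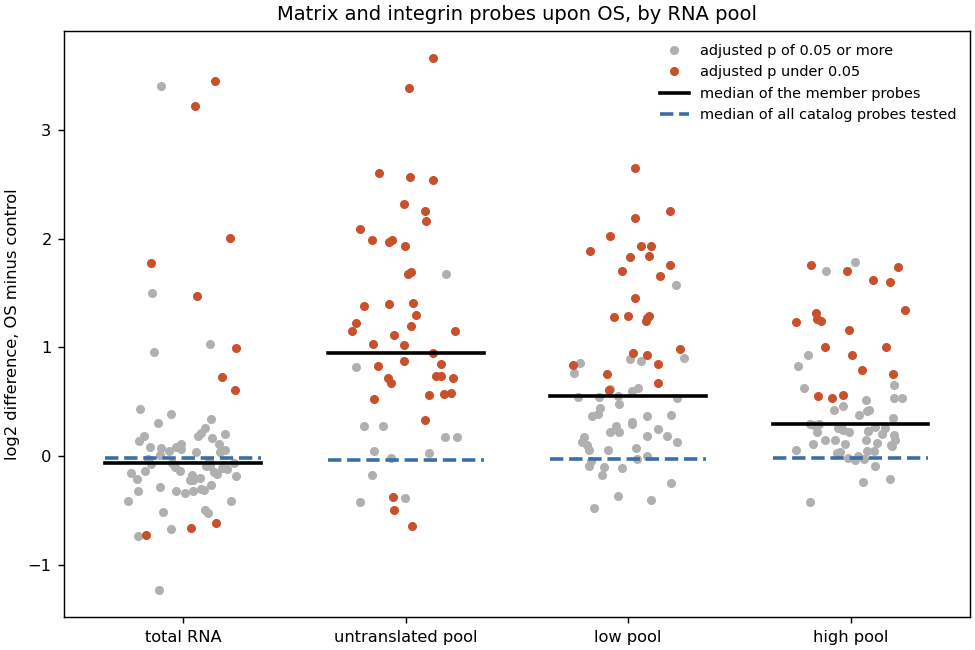
Difference in log2 intensity upon OS (y axis) for each matrix and integrin probe tested in total RNA and in each pool, with called probes in red. Black lines are the medians of these probes (-0.06 in total RNA, 0.94 in the untranslated, 0.55 in the low and 0.30 in the high pool) and dashed blue lines the medians of all catalog probes tested (-0.02, -0.04, -0.03 and -0.01).

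The low pool gave the same direction with fewer calls. Of 71 member probes tested, 26 were higher (36.6%) and 0 lower, beside 5.83% and 4.7% of all catalog probes. At an unadjusted p under 0.05 limma gave 32 higher and 0 lower, beside 10.8% and 10.6% of the catalog probes. The median difference was 0.55 for the members and -0.03 for the catalog probes, and it was 0.60 and 0.51 within the 2 slides that held both groups. Of the 68 members above background in both groups 24 were higher, beside 5.13% of the catalog probes. Scaling to the 75th percentile and leaving out OS low replicate 1 each left 16 calls, all 24 arrays gave 25 and the slide block 26.

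TNC rose in this pool from 7.80, 8.06 and 7.64 to 9.81 and 9.73 (1.93 ± 0.18, adjusted p = 1.66e-06), and COL12A1 from 12.58, 12.44 and 12.17 to 14.39 and 14.25 (1.93 ± 0.26). COL1A1 rose from 15.20, 15.27 and 15.08 to 16.71 and 16.21 (1.28 ± 0.15, adjusted p = 2.89e-05). For each of these genes both OS arrays lay above the 3 control arrays. FBN2, a fibrillin of elastic fibres, rose by 2.03 ± 0.36, from 7.47, 7.51 and 7.39 to 9.52 and 9.44. MMP25 rose by 2.19 ± 0.36 at A_23_P376557, the probe that rose in total RNA. LAMB2P1 rose by 2.25 ± 0.65, which was not called without any 1 of the arrays of this pool.

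COL1A1 with scaling to the 75th percentile gave an adjusted p of 0.0532 in this pool. MMP2, P4HA1 and ITGA5 rose by 0.95, 0.93 and 0.85 and were called neither with that scaling (adjusted p = 0.115, 0.243 and 0.181) nor without OS low replicate 1 (0.0651, 0.114 and 0.0605). SERPINF1 rose by 0.61 and was not called under any of the other normalizations. TIMP1, with 15.99, 16.06 and 15.59 in control and 16.17 and 15.59 in OS, and TIMP3, with a difference of -0.37, did not pass the test.

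In the high pool every called member was higher upon OS. Of the 2 fibroblast markers tested, THY1 was higher too (0.52 ± 0.12), while DDR2 went from a mean of 9.66 to 9.63 and was not called. Of 70 member probes tested, 19 were higher (27.1%) and 0 lower, beside 6.58% and 5.94% of all catalog probes, and at an unadjusted p under 0.05 limma gave 28 higher and 0 lower, beside 12.5% and 11.4%. The median difference was 0.30 for the members and -0.01 for the catalog probes. Within slides it was 0.42, 0.08 and 0.71, so that slide 2, with replicate 2 of both groups, gave the smallest value. Of the 64 members above background in both groups 18 were higher, beside 5.61% of the catalog probes. The slide block gave 20 calls and a fit of the high-pool arrays alone 10, of which 9 were higher and 1 lower.

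COL5A1 at A_33_P3629678 rose from 13.16, 13.06 and 12.49 to 14.96, 14.30 and 14.71 (1.76 ± 0.17, adjusted p = 1.94e-06). COL4A2, a chain of the basement membrane network, rose from 15.19, 15.12 and 14.31 to 17.02, 15.86 and 16.93 (1.74 ± 0.26, adjusted p = 0.000169). TNC rose from 8.01, 8.03 and 7.60 to 9.86, 9.32 and 9.57 (1.70 ± 0.16). In each of the 3 the lowest OS array was replicate 2 and the lowest control array replicate 3, and the groups did not overlap.

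COL12A1 rose by 1.62, COL6A3 by 1.61 at A_33_P3210488, COL7A1, which anchors epithelium to the matrix below, by 1.35, and LAMB2 by 1.26. COL4A2 and COL12A1 were not called in the fit of the high-pool arrays alone (adjusted p = 0.0706 and 0.0511). COL6A1 at 15.43, 15.24 and 14.46 in control and 16.82, 15.36 and 16.66 in OS was called (1.23 ± 0.29) although the groups overlapped, but not with scaling to the 75th percentile (adjusted p = 0.101), in the fit of the high-pool arrays alone (0.197) or without OS high replicate 3 (0.0525). COL1A1 rose by 0.54 ± 0.14, from 17.30, 17.19 and 16.88 to 17.84, 17.42 and 17.71, and lost its call under 6 alternatives, among them leaving out OS high replicate 1 or 3 or control high replicate 3 (adjusted p = 0.0659, 0.0569 and 0.0788). COL3A1, MMP2, P4HA1, ITGA5 and LUM had differences of 0.53, 0.19, 0.22, 0.27 and 0.29 and did not pass the test.

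TIMP1, the inhibitor of most secreted MMPs, was called only in this pool. It had 16.04, 16.18 and 16.07 in control and 16.92, 16.72 and 16.91 in OS, a difference of 0.76 ± 0.17 (adjusted p = 0.00528) with no overlap. Scaling to the 75th percentile ended this call (adjusted p = 0.517).

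Of the 53 member probes tested in all 3 pools, 16 probes of 15 genes were higher in each of them, beside 2.2% of the 7915 catalog probes tested in all 3. The collagens were COL1A1, both COL5A1 probes, COL4A2, COL6A1, COL6A3 at A_33_P3210488, COL7A1, COL12A1, COL16A1 at A_23_P160318 and COL23A1. The others were LAMB2, LAMB3, TNC, FBN2, ITGA7 and MMP25. COL16A1 read at A_33_P3210647 was not among the 16. Its means in the untranslated, low and high pools were 10.07, 8.85 and 7.18 in control and 9.89, 9.22 and 7.28 in OS. FBN2 and MMP25 were not above background on every control untranslated array and so passed there through the OS group. The second MMP25 probe was not tested in any pool. Its means in the untranslated, low and high pools were 6.60, 4.87 and 5.14 in control and 6.46, 4.64 and 5.09 in OS. COL23A1 lost its call in the untranslated pool under 9 of 16 alternatives, and in the high pool MMP25 lost its call under 6 of 15 and FBN2 under 4 of 15. Of the 16 probes, all but that of MMP25 had a lower mean in each control pool than in control total RNA. COL12A1 was at 16.26 in control total RNA and at 12.15, 12.40 and 12.97 in the control untranslated, low and high pools. Upon OS it was at 15.60, 14.32, 14.32 and 14.59 in the same order. The reason for the low control values in the pools was not tested. Each pool has its own control arrays, but the 3 pools are fractions of the same gradients. They are therefore not independent of each other.

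**Figure D3:**
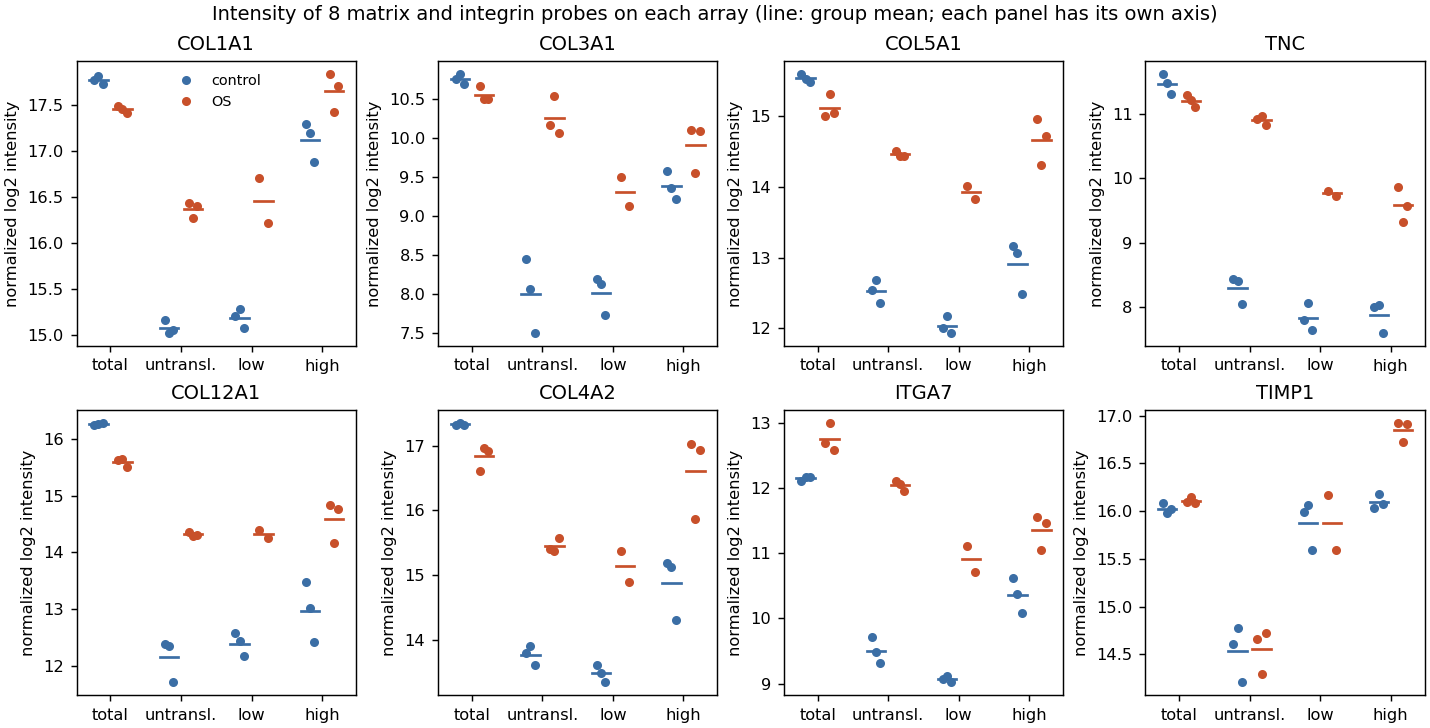
Normalized log2 intensity of 8 probes on each array kept, in total RNA and in the untranslated, low and high pools. Blue points are control arrays, red points OS arrays and lines group means, and each panel has its own axis. In the pools COL5A1 (probe A_33_P3629678), TNC, COL12A1 and COL4A2 lay higher upon OS on each array than on any control array of the same pool, while TIMP1 did so in the high pool alone of the 3.

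The change in the pools was set against the change in total RNA with a contrast chosen after these values were seen, the mean OS difference of the 3 pools minus the OS difference of total RNA. The pools have equal weight in this mean, whatever amount of RNA each held. The contrast therefore does not measure an amount of mRNA gained in the gradient. Of 76 member probes tested, 24 probes of 22 genes were higher (31.6%) and 0 lower, beside 5.61% and 1.69% of all catalog probes. At an unadjusted p under 0.05 limma gave 32 higher and 3 lower, beside 12.1% and 7.58%. The median was 0.52 for the members and -0.03 for all catalog probes. Of the 41 members above background in all 8 groups 20 were higher, and 19 with the tests limited to such probes, beside 6.38% of the catalog probes under that limit. The slide block gave 23 calls, and values within a slide need all 8 groups, which slide 3 lacked.

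COL12A1 had 16.25, 16.26 and 16.28 in control and 15.64, 15.65 and 15.50 in OS total RNA, which did not pass the test, while it rose in each pool, and the contrast was 2.57 ± 0.27 (adjusted p = 6.41e-06). COL6A3 gave 2.40, TNC 2.35, COL5A1 2.27 and 2.00, COL4A2 2.19, LAMB2 1.81, COL3A1 1.56 and COL1A1 1.36 ± 0.16. For these genes the total RNA difference lay between -0.67 and -0.20 and did not pass the test. This does not show that their total RNA was unchanged. At each of these probes all OS arrays of total RNA lay below all control arrays. Limma took the spread from all groups, the pools included. THBS1, which was lower in total RNA, gave 1.12 ± 0.19, and ITGA7, which was higher in every RNA, gave 1.19 ± 0.19. MMP25 and COL23A1 had contrasts of -1.11 and -0.21 and did not pass the test.

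The last comparison asked whether the distribution between the untranslated and the high pool differed upon OS, as the OS difference in the high pool minus that in the untranslated pool. Of 72 member probes tested, 3 had a positive shift (4.17%) and 16 a negative one (22.2%), beside 16.1% and 14% of all catalog probes. The median was -0.42 for the members and 0.02 for the catalog probes. Of the 42 members above background in all 4 groups, 3 were positive and 10 negative, beside 21.6% and 16.7% of the catalog probes. Within slides the members' median was -0.32, -0.99 and -0.10, and the slide block gave 19 calls as the fit without it. The count was 12 with all 24 arrays, 9 (0 positive and 9 negative) with scaling to the 75th percentile, 11 in a fit of the 4 groups alone and 12 without control high replicate 1. With normexp 1 was positive and 18 negative. The fibroblast markers DDR2 and THY1 shifted by -0.81 ± 0.21 and 0.70 ± 0.16.

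COL3A1 shifted by -1.72 ± 0.30 (adjusted p = 0.000788), since it rose by 2.25 in the untranslated and by 0.53 in the high pool. ITGA7 shifted by -1.53 ± 0.23, MMP2 by -1.22 ± 0.24 and COL1A1 by -0.76 ± 0.19, and these 4 were called under every alternative run. COL8A1 shifted by -1.08 ± 0.32, P4HA1 by -0.93 ± 0.28 and ITGA5 by -0.76 ± 0.23, and each lost its call without control high replicate 1 or 2 and with scaling to the 75th percentile. TNC shifted by -0.90 ± 0.22 (adjusted p = 0.00848), and not past the threshold with that scaling (adjusted p = 0.168) or in a fit of the 4 groups alone (0.0523).

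Several genes that rose in every pool gave no called shift. COL4A2 gave 0.06 ± 0.37, COL6A1 -0.14 ± 0.41, COL5A1 -0.18 and -0.67, COL12A1 -0.55 and COL7A1 0.61, which shows neither a shift nor its absence. LAMA4 at A_33_P3391603 (0.79 ± 0.19), TIMP1 (0.73 ± 0.24) and ITGB1BP1 (0.63 ± 0.19) made up the positive side. TIMP1 was called neither with all 24 arrays (adjusted p = 0.0807) nor under any other normalization or when any of 7 single arrays was left out, while LAMA4 lost its call with scaling to the 75th percentile alone (adjusted p = 0.187). ITGB1BP1 lost its call under 7 of 22 alternatives, among them all 24 arrays (adjusted p = 0.0877) and normexp (0.0772). The 6 negative probes not measured in all 4 groups were MMP25, FBN2, LOXL3, ITGB4, ADAMTS12 and COL6A3 at A_33_P3280385, and the size of their shift is open because they were dim in the control untranslated pool.

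**Figure D4:**
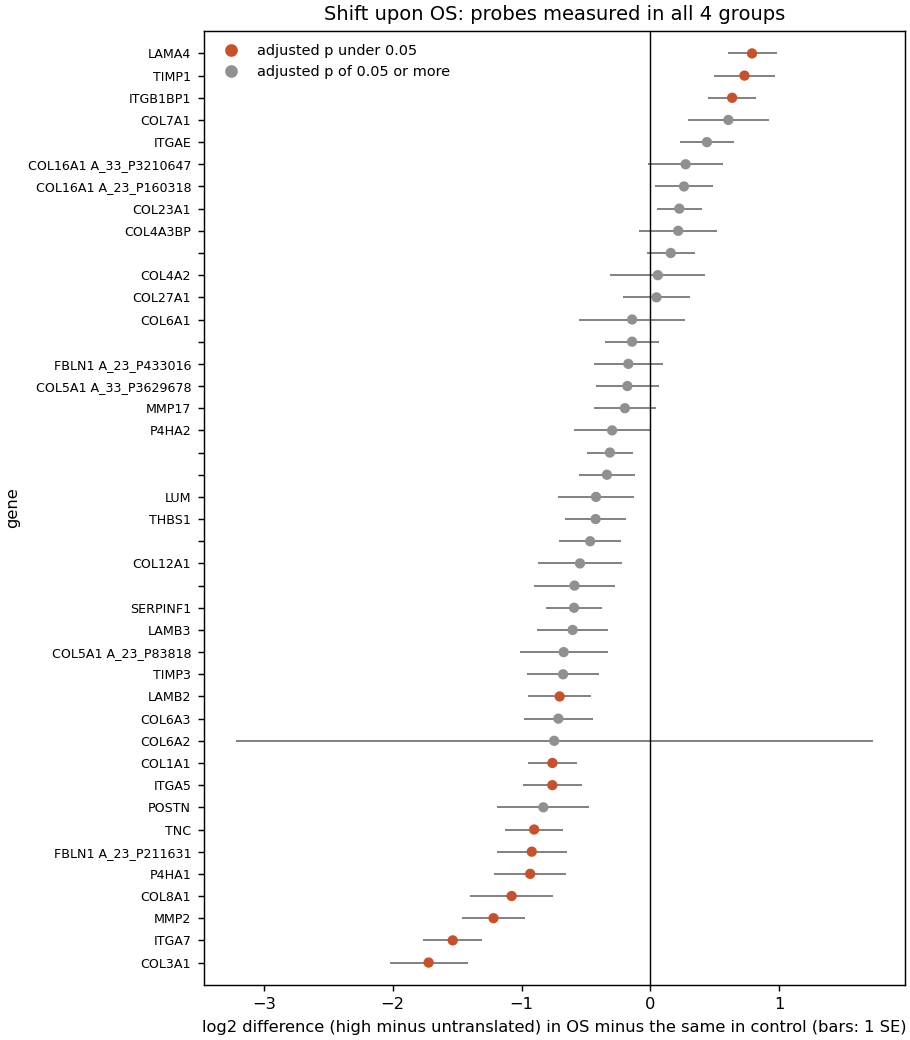
Shift of log2 intensity between the untranslated and the high pool upon OS (x axis) for the 42 matrix and integrin probes well above background in all 4 groups, with limma estimates as points, 1 SE as bars and called probes in red and labels for genes named in the text. COL3A1 (-1.72) and ITGA7 (-1.53) lie at the left end and LAMA4 (0.79) and TIMP1 (0.73) at the right end. COL6A2 has a wide bar because limma pools the spread of all groups, 1 control array of total RNA included.

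Genes that act on the same pathway were read from 3 lists. Of 20 names for collagen folding and secretion, 12 had a catalog probe. Upon OS 9 of 11 probes tested in the untranslated pool were higher and 0 lower, beside 21.3% and 24% of all catalog probes, and 8 of the 10 measured in both groups were higher. In the low pool 2 of 13 were higher and 0 lower, beside 5.83% and 4.7%. In total RNA and the high pool 0 of 13 were called. P4HB, the partner chain of the prolyl hydroxylases, rose by 1.15 ± 0.15 in the untranslated and by 1.18 ± 0.16 in the low pool, and PPIB, a prolyl isomerase, by 0.71 ± 0.14 in the untranslated pool.

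Of 18 focal adhesion names, 12 had a probe. In the untranslated pool 7 of 13 probes were higher and 2 lower, beside 21.3% and 24% of all catalog probes, and in total RNA 0 of 16 were higher and 6 lower, beside 5.49% and 7.56%. In the low pool 2 of 16 were higher and 0 lower, and in the high pool 2 of 15 were higher and 2 lower, beside 5.83% and 4.7% and 6.58% and 5.94%. A probe of FLNA, an actin-binding protein that also binds integrins, rose by 1.79, 1.29 and 1.03 in the untranslated, low and high pools. Its other probe was lower in total RNA (-1.39). These values come from different probes and are not set against each other. Of 21 names for TGF-beta and matricellular genes, 9 had a probe. In total RNA 4 of 9 probes tested were lower and 0 higher, in the untranslated pool 3 of 6 were lower and 1 higher, in the low pool 4 of 8 were lower and 0 higher, and in the high pool 3 of 8 were lower and 1 higher. Of all catalog probes 7.56%, 24%, 4.7% and 5.94% were lower and 5.49%, 21.3%, 5.83% and 6.58% higher in the same order. CYR61, which binds integrins, was lower in each of the 4 kinds of RNA, by -1.29, -1.28, -2.60 and -1.54, and so were ID1 and ID3.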

How the data were processed

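Per the file headers, the authors scanned the arrays with Feature Extraction 10.7.3.1 (design on GRCh37) and deposited each spot's intensity, with the background subtracted in the processed signal. The authors also deposited a log2 table, which differed by at most 0.00145 from quantile normalization over all probes and served as an alternative. Following the methods, log2 processed signal was quantile-normalized separately for lncRNA and catalog probes on 23 of 24 arrays, since the methods remove anomalous replicates without naming them. Control spots and 177 probes with an outlier mark were left out, and no probe was saturated. Probes of a gene were kept apart. R 4.3.3 and limma 3.58.1 gave the group means and tests, with Benjamini-Hochberg adjustment over all tested probes (threshold 0.05), and the steps were tested on simulated data. Bounds ("at least") set the bright group's mean against, per array, the higher of the dim signal and the lowest signal well above background.

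The members and lists were chosen with earlier results of these data known. Named genes are those listed for their role and, per comparison, the 5 most positive and 5 most negative called probes measured in all groups. Others (COL7A1, LAMB2, LAMB3, LOXL3, PLOD1, COL6A2, COL11A2, COL27A1, second probes and genes of the 3 lists) were named after their values were seen. Some genes of the rule and lists are not reported here. Of the member probes, 109 matched a RefSeq accession of GRCh38.p14, 2 under a newer symbol. The series states an independent RNA preparation for each of 3 procedures. p-values measure the spread between samples. Alternatives were other normalizations (normexp with offset 50 among them), filters, blocks, sets of arrays, and the mean of control untranslated replicates 1 and 2, which share a label number.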

Additional observations from a re-analysis of the deposited data

Results flagged for a closer look

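The OS difference of 19 of the 72 member probes tested differed between the untranslated and the high pool by the limma contrast of these differences. Of the members 4.17% were positive and 22.2% negative, beside 16.1% and 14% of all catalog probes. Negative values among probes measured in all 4 groups were those of COL3A1 (-1.72), ITGA7 (-1.53), MMP2 (-1.22), COL8A1 (-1.08), P4HA1 (-0.93), FBLN1 at A_23_P211631 (-0.92), TNC (-0.90), COL1A1 (-0.76), ITGA5 (-0.76) and LAMB2 (-0.70). LAMA4 (0.79), TIMP1 (0.73) and ITGB1BP1 (0.63) had positive values. MMP25 (-2.50), FBN2 (-2.14), COL6A3 at A_33_P3280385 (-2.03), LOXL3 (-1.93), ITGB4 (-1.52) and ADAMTS12 (-1.22) were also negative but not above background on every control untranslated array, so the size of these values is open.

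For 24 of the 76 member probes tested the mean OS difference of the 3 pools differed from that in total RNA. Of the members 31.6% were higher and 0 lower, beside 5.61% and 1.69% of all catalog probes. Collagens made up 11 of them, which were 4 of 8 probes tested of fibrillar collagens and 7 of 15 of other collagens. These were COL12A1 (2.57), COL6A3 (2.40, and 1.63 at A_33_P3280385), COL5A1 (2.27 and 2.00), COL4A2 (2.19) and COL6A1 (1.62). The remaining collagens were COL3A1 (1.56), COL1A1 (1.36), COL7A1 (1.24) and COL16A1 at A_23_P160318 (1.13). The others were TNC (2.35), LAMB2 (1.81), ITGA7 (1.19), THBS1 (1.12), LAMB3 (1.05), MMP2 (0.96), FBLN1 at A_23_P211631 (0.83) and ITGA5 (0.79). They were joined by ADAMTSL1 at A_23_P342138 (0.74), THBS3 at A_23_P201047 (0.67), FBN2 (2.95), THBS2 at A_33_P3365735 (1.25) and ADAMTS12 (1.08). The last 3 and the second COL6A3 probe were not above background on every array of all 8 groups, so the size of their values is open.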

How the results depend on the processing

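Of 127 named probe and comparison pairs called, 80 kept their direction and call under every alternative run and 47 did not under at least 1. TNC in the control high against untranslated comparison reversed with normexp (0.39), quantile normalization over all probes (0.54), the deposited table (0.52) and scaling to the 75th percentile (1.03). The count of called members in total RNA went from 11 to 21 in a fit of the compared groups only. In the untranslated pool it went from 43 to 32 with that fit and to 34 with all 24 arrays or with scaling to the 75th percentile, and between control pools from 55 to 44 with that fit. In the low pool it went from 26 to 16 with scaling to the 75th percentile, in the high pool from 19 to 10 with the fit of the compared groups only, and in the shift from 19 to 12 with all 24 arrays, 9 with scaling to the 75th percentile and 11 with the compared groups only. For the pools against total RNA it went from 24 to 18 with all 24 arrays. The cause was not tested.

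Leaving out each array of the groups compared gave 8 to 11 calls in total RNA, 39 to 42 in the untranslated, 16 to 24 in the low and 13 to 22 in the high pool, 49 to 55 between control pools, 12 to 21 in the shift and 22 to 27 for the pools against total RNA. Leaving out arrays of other groups could move counts further, as in total RNA without control untranslated replicate 3 (8 higher and 6 lower). With the replicate block the counts were 14, 42, 26, 21, 56, 21 and 24 in the same order. Deviations of same-numbered arrays correlated between 0.02 and 0.32 in total RNA, -0.33 and -0.03 in the untranslated, -0.28 and 0.29 in the low and -0.34 and 0.46 in the high pool, so the numbers were not taken as pairs. Control untranslated numbers do not follow the slides, and arrays of 1 slide correlated between 0.13 and 0.42 in the untranslated pool. Counted without the names of other kinds, a choice made after seeing the data, the calls were 9, 39, 25, 19, 49, 18 and 23. Scaling to the 75th percentile moved the median of all catalog probes to -0.19 in total RNA, -0.26 in the low pool and 1.64 between control pools. Signal over background limits the members that could be measured.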
